A study of Mus musculus with 28 samples.

Results

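The replication-dependent histone genes of the mouse were examined for the positions of H3.3 and H3K27ac in embryonic stem cells. A gene was a member if its symbol was H2ac, H2bc, H3c or H4c followed by a number, or if H1- followed by a number was among its names, and if it was not a pseudogene. This gave 67 of the 49943 genes in the annotation on assembled chromosomes, of which 57 matched by their symbol. The other 10 are linker histone genes that the annotation calls H1f0 to H1f8 and H1f10 and lists with an H1- name as a synonym. By type, 10 encode H1, 17 H2A, 16 H2B, 12 H3 and 12 H4.

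The study profiled chromatin of E14 cells, a male mouse embryonic stem cell line, by CUT&RUN, in which an antibody tethers micrococcal nuclease to its target in nuclei and the released DNA is sequenced. The 28 libraries comprised 7 each for H3.3, H3K27ac, H3K122ac and a no-antibody control, from 4 mutant genotypes and from wildtype cells. The mutant genotypes carry alleles labelled A, a lysine-to-alanine change in H3.3 by the title of the series, in the genes H3f3a and H3f3b. H3f3a_AA_H3f3b_WTA was represented by 2 clones and 2 libraries per target, wildtype by 2, and H3f3a_AA_H3f3b_WTWT, H3f3a_WTWT_H3f3b_AA and H3f3a_WTA_H3f3b_AA by 1 each. What was analysed is a consensus list of regions for H3K27ac and another for H3.3, which give positions and no value per library. Mutant and wildtype cells could therefore not be compared, read depth is unknown, the H3K122ac and no-antibody libraries were not analysed here, and no replicate error stands behind any count. Per the labels, H3.3 was profiled with a different nuclease fusion and a lower-salt stop than H3K27ac, so the sizes of the lists do not compare amounts of the marks. Intervals below are exact (Clopper-Pearson) 95% intervals that cover counting over genes only. Histone genes lie close together and share regions, so they are not independent and the intervals are too narrow.

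Replication-dependent histone genes supply the bulk of histones for newly replicated DNA. They are short, lack introns, are transcribed in S phase in nuclear bodies organised by NPAT, and give mRNAs that end in a stem-loop bound by SLBP in place of a poly(A) tail. H3.3, by contrast, is the H3 variant deposited throughout the cell cycle, and H3K27ac is an acetylation found at active promoters and enhancers. Many core histone genes of the same type have nearly identical coding sequences, so reads from these copies are hard to place. The treatment of reads that matched several copies is not given in the sources used here.

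On assembled chromosomes the lists held 57844 H3K27ac and 5430 H3.3 regions. The labelled cell type was checked on marker genes within 1 kb of a gene end. All 10 embryonic stem cell markers, among them Pou5f1, Nanog and Sox2, had H3K27ac, against 2 of 6 fibroblast markers (Thy1 and Fn1) and 0 of 5 primitive endoderm markers. Over all protein-coding genes the share was 38.8%, so the share of fibroblast markers was near that of genes at large.

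Of the 67 genes, 63 fell into 3 clusters, formed by joining members less than 500 kb apart. The cluster on chromosome 3, from 96219885 to 96270192 (mm10), is the smallest, with 10 genes in 50.3 kb and no other protein-coding gene. A cluster on chromosome 13 from 21715711 to 22043658 holds 22 genes in 327.9 kb. The next on chromosome 13, from 23531044 to 23934913, holds 31 genes in 403.9 kb, including the linker genes H1f1, H1f2, H1f3, H1f4 and H1f6. The 4 remaining members, H1f0, H1f7, H1f8 and H1f10, lie alone on chromosomes 15 and 6. H1f0 and H1f10 are replication-independent linker histones, H1f7 is a linker histone of spermatids and H1f8 that of oocytes.

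**Figure D1:**
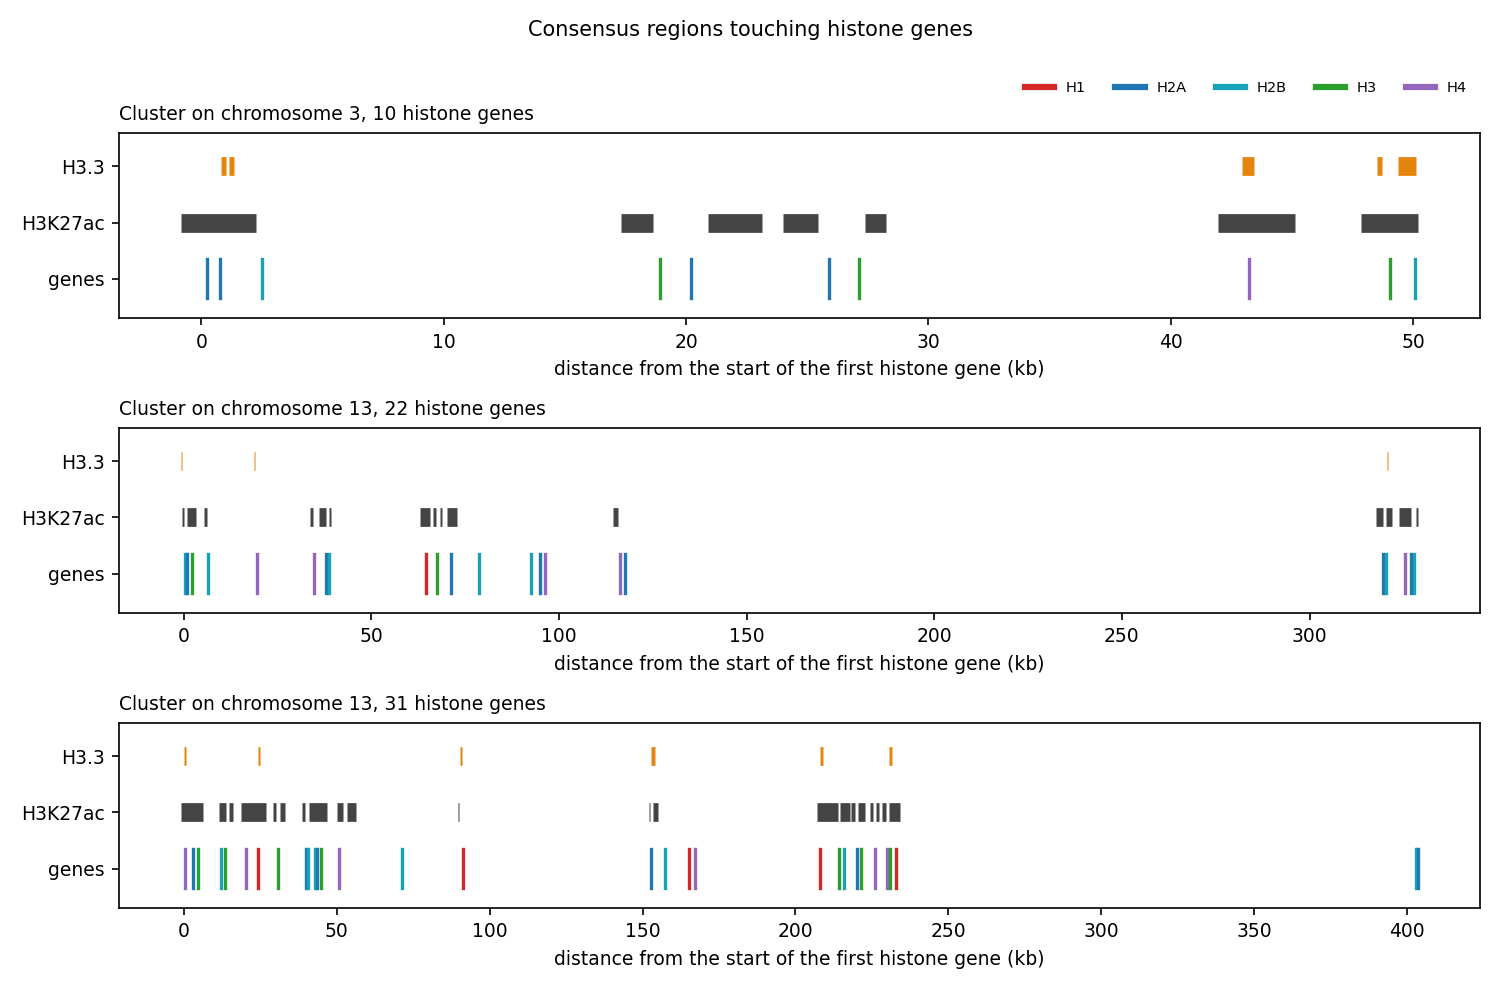
Map of the 3 histone gene clusters, with distance from the first histone gene in kb on the horizontal axis; vertical ticks mark gene centres coloured by histone type, and bars mark the H3K27ac and H3.3 regions within 1 kb of a histone gene end, to scale. The 10 genes of the chromosome 3 cluster all have H3K27ac nearby, and the pair at the far right of the last cluster, H2bc1 and H2ac1, has no region.

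H3K27ac was found at most histone genes. A gene counted as carrying a mark if at least 1 bp of a region fell inside a window of 1 kb to each side of the gene's start or of its end. By this rule 56 of 67 genes (83.6%, 72.5 to 91.5%) carried H3K27ac, beside 38.8% of all 21887 protein-coding genes. H3.3 was present at 20 of 67 (29.9%, 19.3 to 42.3%), beside 16% of protein-coding genes. Both marks were present at 19 genes (28.4%, against 10.7% of protein-coding genes), H3.3 without H3K27ac at 1 (1.49%, against 5.31%) and neither at 10 (14.9%, against 55.8%). Among genes with H3K27ac, H3.3 was present at 19 of 56 histone genes (33.9%, 21.8 to 47.8%), and the interval includes the 27.4% of all protein-coding genes with H3K27ac. Ribosomal protein genes, another family of highly transcribed short genes, had H3K27ac at 82 of 85 (96.5%) and H3.3 at 24 of 85 (28.2%). Histone genes are short, with a median length of 496 bp, so their end windows overlap and cover less sequence than those of a long gene. The same window for every gene, 1 kb around the start site, was applied to the 62 members with a listed start site. Of these, 50 (80.6%) had H3K27ac, beside 35.6% of protein-coding start sites. H3.3 was found at 16 (25.8%, 15.5 to 38.5%), an interval that includes the 16.1% of protein-coding start sites. The fall from 20 to 16 genes comes from H2bc4, H2bc21, H3c1 and H4c14, which had H3.3 at a gene end but have no listed start site, and not from the change of window.

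Fewer regions than genes lay behind these counts. The 56 genes with H3K27ac were served by 46 distinct regions, 23 of which touched more than 1 member, and the 20 genes with H3.3 by 14 distinct regions, of which 7 were shared. The most shared H3K27ac region, chr13:23571797-23577677 with 5881 bp, touched the 5 genes H2ac8, H2bc8, H2bc7, H2ac7 and H3c4. By type, 8 distinct H3K27ac regions touched H1 genes, 18 H2A, 21 H2B, 16 H3 and 11 H4 genes. Of the 18 at H2A genes 15 also touched a gene of another type, as did 18 of the 21 at H2B genes, 9 of 16 at H3 genes, 5 of 11 at H4 genes and 4 of 8 at H1 genes. For H3.3, 4 distinct regions touched H1 genes, 4 H2A, 7 H2B, 3 H3 and 4 H4 genes. Of the 14 H3.3 regions, 11 (78.6%) overlapped an H3K27ac region, beside 47.5% of all H3.3 regions, which include those away from gene ends. Counted by genes with H3.3 at a gene end, 19 of 20 members also had H3K27ac there, as did 2332 of 3495 protein-coding genes.

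**Figure D2:**
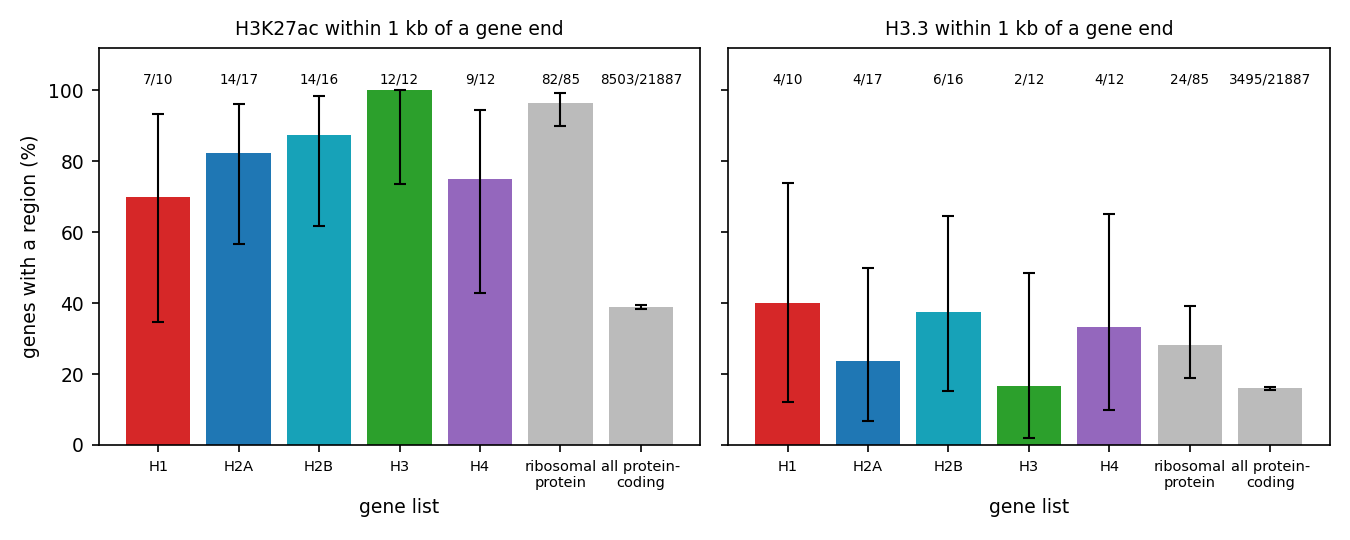
Share of genes with H3K27ac (left) and H3.3 (right) within 1 kb of a gene end, in percent, for each histone type, ribosomal protein genes and all protein-coding genes; bars give the share, error bars the exact 95% interval over genes, and the fractions above give the counts. The intervals of the 5 histone types overlap for both marks, and H3 is the type in which 12 of 12 genes had H3K27ac.

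The genes for core histone H3 all carried H3K27ac, 12 of 12 (73.5 to 100%), beside 38.8% of protein-coding genes. In the mouse these genes encode the replicative H3.1, from H3c1, H3c8, H3c10 and H3c11, and H3.2, from the other 8. H3.3 lay at 1 H3.1 gene (H3c1) and at 1 H3.2 gene (H3c13). This share, 16.7%, is near the 16% of protein-coding genes. Thus 10 of the 12 genes for replicative H3 had H3K27ac alone (83.3%, beside 28.2% of protein-coding genes). The widest H3K27ac regions at H3 genes were those at H3c8 (7168 bp), H3c3 (6936 bp), H3c4 (5881 bp) and H3c1 (3503 bp). Around H3c1 (chr13:23761885-23762386) the H3.3 region chr13:23761512-23762696, of 1185 bp, covered the whole gene, and it was the widest H3.3 region at any histone gene. That region reached to 263 bp upstream of the H4c1 start site and ended 972 bp upstream of that of H1f1, and it is counted for all 3 genes.

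For the other core histones H3K27ac was present at 14 of 17 H2A genes, 14 of 16 H2B genes and 9 of 12 H4 genes. H3K27ac was present at 38.8% of all protein-coding genes. H3.3 was present at 4 of the H2A genes (23.5%, 6.81 to 49.9%) and 6 of the H2B genes (37.5%, 15.2 to 64.6%). At H4 genes it was present at 4 (33.3%, 9.92 to 65.1%). Each of these H3.3 intervals includes the 16% of protein-coding genes. At H2A genes the widest H3K27ac region was at H2ac10 (7168 bp), before the shared region of 5881 bp at H2ac7 and H2ac8 and 1 of 3091 bp at H2ac11. At H2B genes, H2bc7 and H2bc8 had 5881 bp, H2bc3 had 3119 bp and H2bc11 had 3091 bp. At H4 genes, H4c6 had 8160 bp, H4c8 7168 bp, H4c1 3503 bp and H4c14 3180 bp. The region of 8160 bp, chr13:23549563-23557722, also covered the linker gene H1f3, and it was the widest H3K27ac region at any histone gene, wider than 98.9% of all H3K27ac regions.

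H3.3 regions at core histone genes were 205 to 1185 bp wide. H2ac6 and H2bc4 shared a region of 1010 bp, H2bc18 and H3c13 shared 1 of 772 bp, H2bc6 had 646 bp, H4c8 had 523 bp and H4c14 had 469 bp. H2bc6 is annotated with 37455 bp and start sites at 23585970 and 23621094. Its H3.3 region, shared with H1f4, lay 292 bp upstream of the start site at 23621094 and far from the other. The H3.3 regions at H2ac20, H2ac21 and H2bc21 measured 224 and 220 bp, that at H2bc13 323 bp, a further region at H3c13 209 bp, that at H2ac12 and H2bc12 211 bp, and that at H4c11 205 bp. Among the 20 genes with H3.3 the median width of the widest region was 646 bp, beside 486 bp over all protein-coding genes with H3.3. For H3K27ac the medians were 2365 bp over 56 histone genes and 1388 bp over 8503 protein-coding genes. These medians count a shared region once for each gene it touches. With each region counted once, the median was 496 bp over the 14 H3.3 regions at histone genes, beside 451.5 bp over all H3.3 regions, and 1543.5 bp over the 46 H3K27ac regions, beside 812 bp over all H3K27ac regions.

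**Figure D3:**
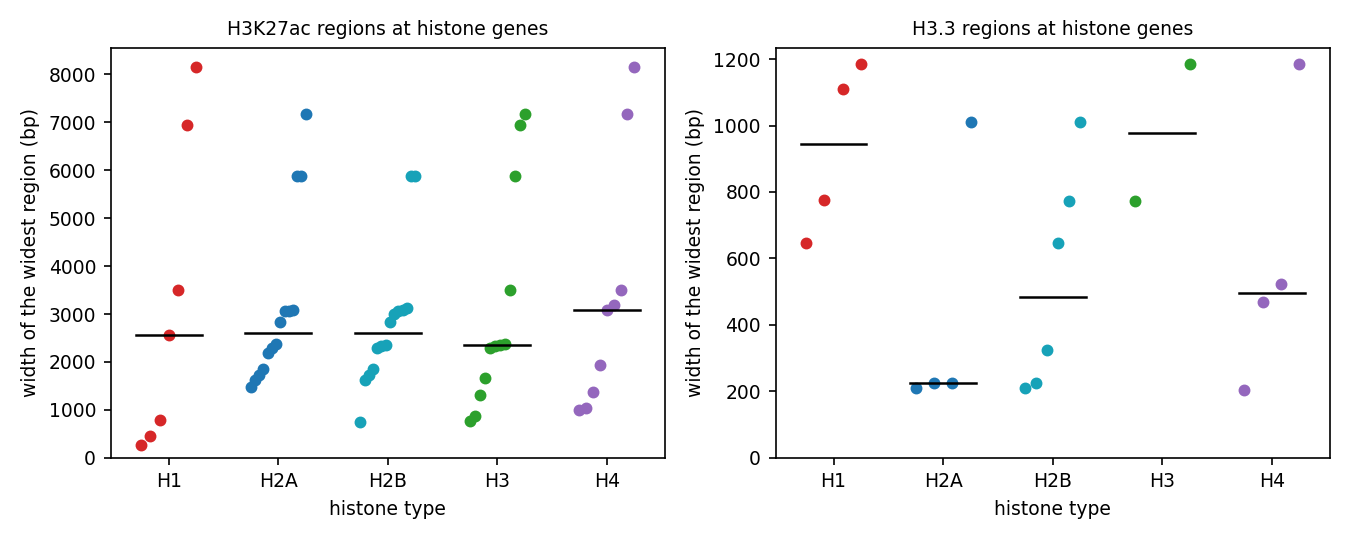
Width in bp of the widest H3K27ac region (left) and H3.3 region (right) at each histone gene that has one, by histone type; each point is a gene, the line is the median of the type, and genes that share a region appear at the same height. H3K27ac widths range from 277 to 8160 bp and H3.3 widths from 205 to 1185 bp.

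Linker histone genes were the type with the highest share of H3.3 inside the clusters, though on few genes. H1f1 to H1f5 are the replication-dependent linker genes of somatic cells, and H1f6 is the linker gene of spermatocytes. H3.3 was present at H1f1, H1f2, H1f3 and H1f4, 4 of the 6 linker genes in clusters (66.7%, 22.3 to 95.7%), beside 16% of protein-coding genes. No H3.3 region was found at H1f5 and H1f6. Over all 10 linker genes the share was 40.0% (12.2 to 73.8%), near the 37.5% of H2B genes. The H3.3 region at H1f4 is shared with H2bc6, and that at H1f1 with H4c1 and H3c1. At H1f2, H1f3 and H1f4 H3.3 lay within the transcribed gene and past its end, not over the start site. At H1f3 it ran from 104 to 878 bp downstream of the start site and covered 86.6% of the gene. The H3.3 region at H1f2 ran from 142 to 1252 bp and covered 80.4% of the gene. For H1f4 it ran from 527 to 1172 bp and covered 32.6%. At H1f1 no H3.3 lay in the gene, and the region 972 bp upstream no longer counted with a window of 500 bp. H3K27ac covered H1f1, H1f2, H1f3 and H1f5 from end to end, in regions of 3503, 6936, 8160 and 2557 bp. H1f4 had none inside the gene and a region of 277 bp at 665 bp from the 3' end, which was outside a window of 500 bp.

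The sequences upstream of these start sites (RefSeq, GRCm38.p6) hold elements known from histone promoters. They are printed from 250 bp upstream to the base before the start site, 5' to 3' on the coding strand, for the 3 linker genes with H3.3 inside the gene and for H1f6, which had neither mark. Capitals mark, on either strand, the NF-Y box CCAAT, the TATA box TATAAA, the octamer core TTTGCAT and AAACACA, the H1 box known from linker histone promoters. A match is a description of the letters and does not show that a factor binds.
H1f2 (chr13:23738557-23738806, plus strand): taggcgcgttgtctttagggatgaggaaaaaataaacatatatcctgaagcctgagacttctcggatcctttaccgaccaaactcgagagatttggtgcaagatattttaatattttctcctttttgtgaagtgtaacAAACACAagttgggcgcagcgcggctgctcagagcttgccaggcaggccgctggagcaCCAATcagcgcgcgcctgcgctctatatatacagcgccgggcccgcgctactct
H1f3 (chr13:23554782-23555031, plus strand): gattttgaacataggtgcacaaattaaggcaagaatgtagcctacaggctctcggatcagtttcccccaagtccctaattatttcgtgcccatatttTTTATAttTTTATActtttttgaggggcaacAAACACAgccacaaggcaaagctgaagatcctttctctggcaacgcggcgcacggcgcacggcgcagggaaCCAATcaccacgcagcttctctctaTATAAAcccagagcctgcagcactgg
H1f4 (chr13:23622559-23622808, minus strand): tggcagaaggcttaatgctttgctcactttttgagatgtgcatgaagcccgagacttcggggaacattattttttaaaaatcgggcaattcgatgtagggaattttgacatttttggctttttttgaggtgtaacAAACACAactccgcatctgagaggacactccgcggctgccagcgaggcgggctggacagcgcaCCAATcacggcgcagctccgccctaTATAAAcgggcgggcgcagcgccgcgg
H1f6 (chr13:23695561-23695810, plus strand): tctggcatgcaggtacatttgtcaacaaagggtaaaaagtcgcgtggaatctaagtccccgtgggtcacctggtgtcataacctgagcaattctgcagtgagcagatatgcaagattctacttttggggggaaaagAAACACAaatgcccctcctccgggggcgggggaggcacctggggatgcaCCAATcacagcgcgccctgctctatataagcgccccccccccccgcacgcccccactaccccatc
All 4 sequences hold AAACACA and, nearer the start site, CCAAT, and those of H1f3 and H1f4 also hold TATAAA. H3K27ac covered all 250 bp of this stretch at H1f2 and H1f3 and 0 bp at H1f4 and H1f6, and H3.3 covered 0 bp at all 4.

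At a few core histone genes H3.3 lay in the upstream sequence. Among the 63 start sites listed for 62 members (none is listed for H2bc4, H2bc21, H3c1, H3c7 and H4c14), 4 had H3.3 within 250 bp upstream. Those 4 are printed in the same way, since they are the listed histone promoters that H3.3 regions overlap. The stretch could not be measured without a listed start site, and H2bc4, H2bc21, H3c1 and H4c14 had H3.3 at a gene end.
H2ac6 (chr13:23683960-23684209, minus strand): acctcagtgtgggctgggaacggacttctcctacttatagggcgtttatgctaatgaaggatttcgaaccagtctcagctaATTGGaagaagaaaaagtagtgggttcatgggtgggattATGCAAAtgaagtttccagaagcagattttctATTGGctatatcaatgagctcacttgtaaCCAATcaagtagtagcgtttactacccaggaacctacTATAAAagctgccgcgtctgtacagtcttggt
H2ac20 (chr3:96220881-96221130, minus strand): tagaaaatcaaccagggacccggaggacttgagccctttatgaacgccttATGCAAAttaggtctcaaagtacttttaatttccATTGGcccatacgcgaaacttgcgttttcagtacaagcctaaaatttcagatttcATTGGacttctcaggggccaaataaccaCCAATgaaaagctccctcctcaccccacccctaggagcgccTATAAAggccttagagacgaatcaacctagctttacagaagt
H2bc18 (chr3:96269450-96269699, plus strand): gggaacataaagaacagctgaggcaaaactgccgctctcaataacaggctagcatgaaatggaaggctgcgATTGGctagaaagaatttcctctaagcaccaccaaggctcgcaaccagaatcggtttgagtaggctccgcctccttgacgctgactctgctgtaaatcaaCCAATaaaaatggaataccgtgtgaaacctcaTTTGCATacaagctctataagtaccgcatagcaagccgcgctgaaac
H3c13 (chr3:96268404-96268653, plus strand): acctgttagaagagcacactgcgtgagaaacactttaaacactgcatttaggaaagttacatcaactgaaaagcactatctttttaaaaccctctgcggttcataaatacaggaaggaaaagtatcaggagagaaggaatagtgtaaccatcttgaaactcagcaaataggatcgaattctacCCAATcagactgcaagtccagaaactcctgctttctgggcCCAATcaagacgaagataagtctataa
H3.3 covered 247 bp of this stretch at H2ac6, where H3K27ac covered 0 bp. It covered 132 bp at H2ac20, 250 bp at H2bc18 and 186 bp at H3c13, and at these 3 genes H3K27ac covered all 250 bp. H2ac6, H2ac20 and H2bc18 each hold CCAAT and the octamer core TTTGCAT, read on the minus strand as ATGCAAA in H2ac6 and H2ac20. H3c13 holds CCAAT and no octamer core.

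Over all clustered members the motif content differed between types. CCAAT, the core of the element bound by NF-Y, was found within 250 bp upstream at 6 of 6 H1, 17 of 17 H2A and 15 of 15 H2B start sites, 8 of 10 H3 and 3 of 11 H4 start sites, beside 35.4% of protein-coding start sites. The octamer core TTTGCAT, part of the OCT1 element known from H2B promoters, was present at 7 of 15 H2B and 6 of 17 H2A start sites, 1 of 11 H4 and 0 of 6 H1 and 0 of 10 H3 start sites (3.86% of protein-coding ones). TATAAA was found at 28 of 59 start sites of clustered members (47.5%), beside 11.6%. AAACACA was found at 5 of 6 H1 start sites and at 4 of the other 53, beside 5.46%. Both strands were searched, and none of the 4 motifs contains another. In 9 pairs an H2A and an H2B gene stand head to head, with 163 to 280 bp between their start sites. The stretches searched for the 2 genes of such a pair are largely the same sequence. H2A and H2B counts are therefore not separate, and 1 match can count for both genes. The octamer core was found for both genes of the pairs H2ac12 with H2bc12, H2ac8 with H2bc8, and H2bc1 with H2ac1. With and without H3.3 the shares overlapped, for example CCAAT at 15 of 17 start sites of members with H3.3 (88.2%, 63.6 to 98.5%) and at 35 of 46 of those without (76.1%, 61.2 to 87.4%). Of the 10 start sites of members with neither mark, 8 held CCAAT and 3 TATAAA.

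**Figure D4:**
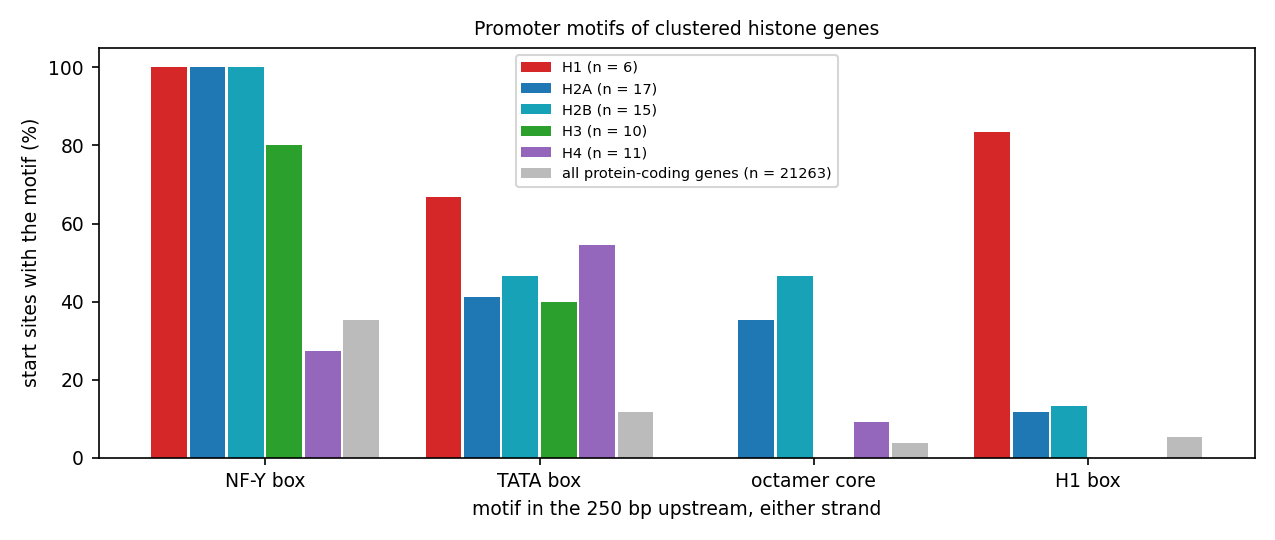
Share of start sites, in percent, with each of 4 motifs in the 250 bp upstream on either strand, for clustered histone genes by type and for all protein-coding genes in grey; the NF-Y box is CCAAT, the TATA box TATAAA, the octamer core TTTGCAT and the H1 box AAACACA. The H1 box stands at 83.3% in H1 genes, and the octamer core at 46.7% in H2B and 35.3% in H2A genes. H2A and H2B genes that stand head to head share much of the searched sequence.

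H3K27ac lay beside many histone genes more than over them. Around the 59 start sites of clustered members, coverage by H3K27ac regions reached 69.5% at 800 bp upstream and 71.2% at 700 bp downstream, and was 42.4% at the start site itself, with a minimum of 40.7% at 150 bp upstream. Over 21263 protein-coding start sites the same profile was flatter, with 19.0% at 250 bp upstream, 18.3% at the start site and 20.9% at 500 bp downstream. Thus 25 of 59 clustered start sites (42.4%, 29.6 to 55.9%) lay inside an H3K27ac region, beside 18.3% of protein-coding start sites, while 49 of 59 (83.1%) had one within 1 kb. By type, 4 of 6 H1, 5 of 17 H2A, 7 of 15 H2B, 5 of 10 H3 and 4 of 11 H4 start sites were inside H3K27ac. Of the 63 clustered genes, 23 were covered from end to end, 22 in part and 18 not at all, and 9 of these 18 still had a region at a gene end. H3.3 lay over 2 of 59 start sites (3.39%, 0.413 to 11.7%), those of H2ac20 and H2bc18, beside 7.19% of protein-coding start sites. It lay within 1 kb of 16 of 59 (27.1%). The 59 leave out H2bc4, H2bc21, H3c1, H3c7 and H4c14, which have no listed start site. All of these but H3c7 had H3.3 at a gene end, and H3c1 lay wholly inside an H3.3 region, so the H3.3 shares may be too low.

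**Figure D5:**
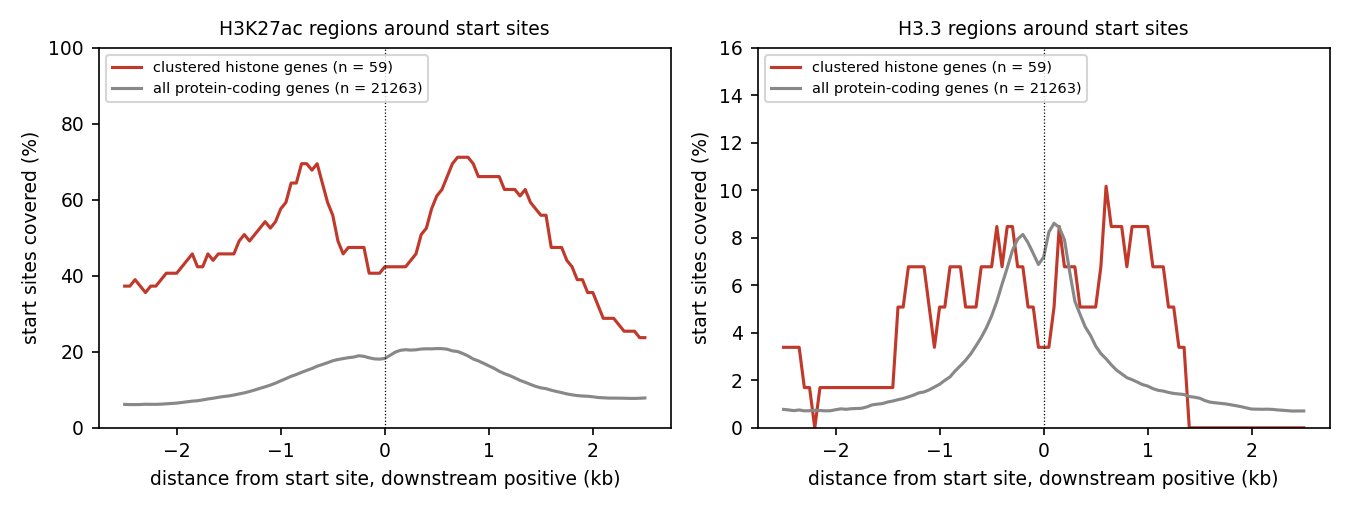
Share of start sites, in percent, covered by H3K27ac regions (left) and H3.3 regions (right) at each 50 bp step from 2.5 kb upstream to 2.5 kb downstream, for 59 start sites of clustered histone genes (red) and 21263 of protein-coding genes (grey). The red H3K27ac line has a dip at the start site, at 42.4%, between maxima of 69.5% and 71.2%, and the scales of the panels differ.

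Gaps in H3K27ac at the start site were seen at H2A-H2B pairs, whose start sites are among the 59 of the profile. H2A and H2B genes often stand head to head and share the promoter between them, and 9 such pairs had both start sites listed, 163 to 280 bp apart. H3K27ac filled the sequence between the start sites at 2 pairs, H2ac22 with H2bc22 and H2bc7 with H2ac7. At 5 pairs, which were H2bc13 with H2ac13, H2ac15 with H2bc15, H2ac12 with H2bc12, H2ac11 with H2bc11 and H2ac8 with H2bc8, H3K27ac lay on both sides of the pair and 0% of the sequence between was covered. The other 2 pairs, H2bc23 with H2ac23 and H2bc1 with H2ac1, had no H3K27ac region. H3.3 covered 0% of the sequence between start sites at all 9 pairs, and lay near H2bc13 and near H2bc12 past the 3' end of the H2B gene, 858 and 579 bp downstream of its start site. At 2 further adjacent pairs of H2A and H2B genes, for which the H2B start site is not listed, H3.3 did lie between the genes. The region of 1010 bp began 4 bp upstream of H2ac6 and reached into H2bc4, and the regions of 224 and 220 bp at H2ac20 and H2bc21 each covered part of the sequence between those genes.

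The 10 genes with neither mark were 5 germline genes and 5 others. H2ac1 and H2bc1 encode the testis forms TH2A and TH2B. They and the germline linker genes H1f6, H1f7 and H1f8 had neither mark, 5 of 5. Over all protein-coding genes 55.8% had neither mark. H2ac1 and H2bc1 stand 169.3 kb from the nearest other histone gene, and their start sites lay 93643 and 93924 bp from the nearest H3K27ac region. The other 5 were H2bc23, H2ac23, H4c17, H2ac24 and H4c3. H2bc23, H2ac23 and H4c17 are neighbours, between 21806412 and 21812150 on chromosome 13, with the nearest H3K27ac region 15774, 15606 and 14227 bp from their start sites. H2ac24 had H3K27ac 1930 bp from its start site and counted with a window of 2.5 kb. H4c3 lies next to H1f6, and its start site was 12229 bp from H3K27ac. H4c11 was the gene with H3.3 alone, a region of 205 bp that ended 431 bp upstream of the start site, from which the nearest H3K27ac region was 13172 bp away.

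Some members had near-identical upstream sequences. The 250 bp upstream of H4c17, with neither mark, and of H4c18, with H3K27ac, were 99.6% identical, and those of H4c11 and H4c12, with H3.3 alone and H3K27ac alone, 90.8%. Those of H3c14 and H3c15, both with H3K27ac alone, were 94.0% identical. These were the 6 start sites with another member's sequence at 90% identity or more, and they divided into 4 with H3K27ac alone, 1 with H3.3 alone and 1 with neither. The calls at these 6 genes are uncertain. Gene bodies were not compared, so calls at other members may be uncertain too. Below 90%, H2ac23 and H2bc23, with neither mark, were 84.0% and 79.6% identical to H2ac7 and H2bc7, with H3K27ac. H2ac18 and H2ac19, both with H3K27ac alone, were 82.4% identical. The part of read placement in the calls was not tested.

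The 3 clusters differed in how densely they were marked. H3K27ac covered 27.9% of the chromosome 3 cluster, 13.7% of the 22-gene cluster and 14.1% of the 31-gene cluster, and H3.3 covered 3.76%, 0.678% and 1.30%. On chromosome 3 all 10 genes had H3K27ac (69.2 to 100%) and 6 had H3.3 (60.0%, 26.2 to 87.8%), at H2ac20, H2ac21, H2bc21, H4c14, H3c13 and H2bc18. In the 22-gene cluster 17 had H3K27ac (77.3%) and 4 had H3.3 (18.2%, 5.19 to 40.3%), at H2bc13, H4c11, H2ac12 and H2bc12. In the 31-gene cluster 27 had H3K27ac (87.1%) and 10 had H3.3 (32.3%, 16.7 to 51.4%), at H4c8, H1f3, H2bc6, H1f4, H2ac6, H2bc4, H1f2, H4c1, H3c1 and H1f1. The intervals of the H3.3 shares overlap between clusters. Over all protein-coding genes the shares were 38.8% for H3K27ac and 16% for H3.3. The H3.3 share of the 22-gene cluster, 18.2%, was near that of protein-coding genes.

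H3K27ac was denser near the histone genes than elsewhere in the spans, least so in the 22-gene cluster. Within 2.5 kb of a member H3K27ac covered 45.8%, 27.3% and 40.3% of the sequence in the chromosome 3, 22-gene and 31-gene clusters, and elsewhere in the spans 2.41%, 9.32% and 0.212%. H3.3 covered 6.41%, 0.525% and 3.74% near members and 0%, 0.726% and 0% elsewhere. These values count sequence inside the spans only. In the 22-gene cluster they leave out the H3.3 region of 323 bp near H2bc13, which lies just outside the span. Near and away are therefore not ranked for H3.3 in that cluster. The 10 other protein-coding genes in the spans had H3K27ac at 1 (0.253 to 44.5%, beside 38.8% of protein-coding genes) and H3.3 at 1 (the same interval, beside 16%), both at the zinc finger gene Zfp184, whose widest regions measured 283 bp for H3K27ac and 329 bp for H3.3. Hfe, which encodes a regulator of iron uptake, the ubiquitin ligase gene Trim38, the transporter genes Slc17a1, Slc17a2, Slc17a3 and Slc17a4, and Pom121l2, Prss16 and H4bc24 had neither mark at a gene end. The longest stretches without a histone gene were 201.6 kb between H2ac24 and H2ac12 and 169.3 kb between H1f1 and H2bc1. The span of the 22-gene cluster held 39 H3K27ac regions. Its members were touched by 15 regions, including that of 478 bp at H2bc11, which lies past the end of the span. Of the regions in the other spans, 7 of 8 on chromosome 3 and 21 of 23 in the 31-gene cluster touched a member.

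Genes for histone variants and for the regulators of histone genes were set beside the members. Of 10 variant genes, 8 had H3K27ac (80.0%, beside 38.8% of protein-coding genes) and 1 had H3.3 (10.0%, beside 16%). H3f3a, which encodes H3.3, had 875 bp of H3K27ac and 390 bp of H3.3, while H3f3b, which encodes the same protein, had neither at a gene end. H2ax, the variant phosphorylated at DNA breaks, had the widest H3K27ac region of the list, 5187 bp, and H2az1, H2az2, Cenpa, Macroh2a1, H1f0 and H1f10 had 237 to 1386 bp. Macroh2a2 had neither. H1f0 and H1f10 are also members, and neither had H3.3.

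Of 16 regulators, 14 had H3K27ac (87.5%, beside 38.8% of protein-coding genes) and 8 of these also had H3.3 (57.1%, 28.9 to 82.3%, beside 27.4% of protein-coding genes with H3K27ac). Npat, the S-phase coactivator of histone genes, had 2707 bp of H3K27ac and 689 bp of H3.3, and Slbp, the stem-loop binding protein gene, had 2578 and 203 bp. Zfp473, a zinc finger protein of histone mRNA 3' processing, had 3090 and 370 bp, and Sympk, for the scaffold of the cleavage machinery, 796 and 444 bp. The cleavage factor genes Cpsf2 and Cpsf3 and the cyclin E genes Ccne1 and Ccne2 had both marks as well. Casp8ap2, Lsm10, Hinfp, Pou2f1, E2f1 and Cdk2 had H3K27ac alone, with 583 to 3071 bp, and Lsm11 and the X-linked Cstf2 had neither.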

How the data were processed

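CUT&RUN libraries from E14 cells are named with Bowtie2, SAMtools, deepTools, MACS2 and the build mm10, per the submitters' processing notes, without roles or versions. The deposited files hold positions of consensus regions, with no other value, score or header. How libraries were combined, and at what threshold, is not given in the sources used here. Coordinates were made 1-based by adding 1 to each start, and 13 H3K27ac and 16 H3.3 regions off the assembled chromosomes were left out. Genes came from the RefSeq table of GRCm38.p6, which shares the coordinates of mm10 on these chromosomes, and start sites and sequences from the RefSeq promoter table, which matched 62 of 67 members. The members and lists were chosen with earlier results of these data known.

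Counts, widths and coverage were computed in Python 3.11.15 with pandas 2.3.3, NumPy 2.4.6 and SciPy 1.17.1, and sequence identity from global alignments with Biopython 1.88, as the percent of identical bases over 250 bp. The overlap code was tested on simulated data. No statistical test was run. The rule for named genes took, per type, the 4 members with the widest region of each mark, all members without H3K27ac (H3.3 alone included), and the variant and regulator lists in full. Further genes were named after their values were seen, to complete shared regions, clusters, head-to-head pairs and near-identical copies. AAACACA was added to the motifs after the data were seen. Alternatives covered the window, overlap, region width, membership and the joining distance.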

Additional observations from a re-analysis of the deposited data

How the results depend on the processing

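Of 52 values, from 8 counts and shares of the report each recomputed under 3 to 10 alternative settings, 48 stayed within the interval of the reported share or, for coverage and counts of regions, within 1.5 times the reported value. Taking protein-coding members only kept all 67 members, and joining members at 1 Mb gave the same 3 clusters. The values under these settings only repeat the reported ones, and they are counted among the 48. With regions reduced to 200 bp around their centre, 45 of 67 genes had H3K27ac and 17 had neither mark. With the wider 50% of each list, 13 genes had H3.3 (8.43% of protein-coding genes did), 12 had both marks, 15 had neither, and 8 distinct H3.3 regions touched members. For both or neither mark with the wider 50%, and for regions of 200 bp, shares of protein-coding genes were not computed. With members joined at 100 kb, H3.3 covered 1.84% of the then 5 spans (411.2 kb in all, against 782.1 kb in 3 spans). Windows of 500 bp and 2.5 kb gave 55 and 57 genes with H3K27ac (33.7% and 44.2% of protein-coding genes) and 18 and 23 with H3.3 (14.2% and 18.4%). The settings by symbol column alone (49 of 57 genes with H3K27ac, 16 with H3.3) and by start site were chosen after seeing the data. No paired analysis was possible because the region lists carry no column per library, and leaving out a replicate was not possible for the same reason. Depth is unknown, so an absent region does not show that the mark was absent.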

Other observations

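Histone genes that the symbol rule does not take were few and mixed in their marks. On chromosome 11, H2bu2 and H3f4, for an H2B and a testis H3, had neither mark, and H2aw, for an H2A, had an H3.3 region of 966 bp without H3K27ac. H4f16 on chromosome 6, a lone H4 gene, had 831 bp of H3K27ac and 924 bp of H3.3, and its neighbour H2aj, for the replication-independent variant H2A.J, had 2959 bp of H3K27ac and no H3.3. H4bc24, inside the 22-gene cluster on chromosome 13, and H3f3c on chromosome 2 had neither.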
